A study of Mus musculus with 42 samples.

Results

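The genes described here are the subunits of the ionotropic glutamate receptors (the AMPA, kainate, NMDA and delta receptors), the metabotropic glutamate receptors, and the subunits of the GABA-A receptor. They were taken by symbol: protein-coding genes named Gria, Grik, Grin, Grid or Grm followed by a digit, or with a name that begins with Gabr, with Grina left out. This rule gave 46 of the 37907 gene IDs in the table, of which 26 were glutamate receptor genes and 19 were GABA-A receptor genes. The remaining gene, Grid2ip, encodes a protein that binds a delta receptor and is not itself a subunit. The RNA came from adult male C57/BL6 mice of wild-type genotype that had food ad libitum or had been without it for 24 hours. Small pieces of 4 hypothalamic nuclei were taken from frozen sections with a laser: the arcuate (ARC), the ventromedial (VMH), the dorsomedial (DMH) and the paraventricular (PVN) nucleus. Fed mice gave 5 ARC, 6 VMH, 5 DMH and 6 PVN libraries, and fasted mice gave 5, 6, 4 and 5. Wild-type animals were used throughout, so the groups differ only in nucleus and feeding state as far as the labels say.

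Glutamate and GABA are the main excitatory and inhibitory transmitters of the hypothalamus. AMPA, kainate, NMDA and GABA-A receptors are ion channels built from several subunits, and the subunits that are present set the kinetics, the permeability and the drug response of the channel. A typical GABA-A receptor joins alpha, beta and gamma subunits, while the epsilon (Gabre) and theta (Gabrq) subunits are found mainly in the hypothalamus and brain stem. Metabotropic glutamate receptors signal through G proteins. Excitatory input to the hunger neurons of the ARC, which depends on NMDA receptors, is known to change with fasting.

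The depth of the libraries, estimated from the steps in the deposited values, had a mean of 4.57 M reads and ranged from 1.33 to 13.2 M. It is an inferred size of the counted library. The study gives a higher average of sequenced reads per sample, a different measure taken over more libraries. Genes with few reads were measured less well. Values are RPKM, read counts scaled for transcript length and library size, which can be compared between genes. The labelled nuclei were checked against marker genes: the summed RPKM of the ARC markers was 1195 in the fed ARC and at most 85.6 in the other fed nuclei, and the VMH markers (215 against at most 21.8), DMH markers (206.6 against at most 27.4) and PVN markers (6346 against at most 88.05) were as clearly separated. The study captured all 4 nuclei from each brain and the labels do not say which libraries share a mouse, so the p-values below treat libraries as independent and measure only the spread between these libraries. Fed and fasted mice were different animals.

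Of the 46 genes, 42 reached 1 RPKM in 4 or more of the 42 libraries and were tested. The 4 others were Gabra6, Gabrp, Grin3b and Grm6, whose values equalled that of 0 reads in 36, 30, 30 and 21 of the 42 libraries. At the low end of the tested genes, Gabrd, the delta subunit of receptors outside synapses, and the rho subunits Gabrr1, Gabrr2 and Gabrr3 were at that value in 20, 23, 13 and 31 libraries, and Grid2ip in 13. Among the abundant RNAs were the AMPA subunits Gria2, with a mean of 95.2 RPKM over all libraries, and Gria1 (65.45 RPKM), and the GABA-A subunits Gabra5 (62.6 RPKM) and Gabrq (55.1 RPKM). Gabrq thus stood above every NMDA, kainate and metabotropic receptor gene. The most abundant member of the NMDA class was Grin1, the obligatory subunit, at 26.1 RPKM, that of the kainate class Grik5 at 20.8 RPKM, that of the metabotropic class Grm5 at 16.2 RPKM, and that of the delta class Grid1 at 8.44 RPKM.

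**Figure D1:**
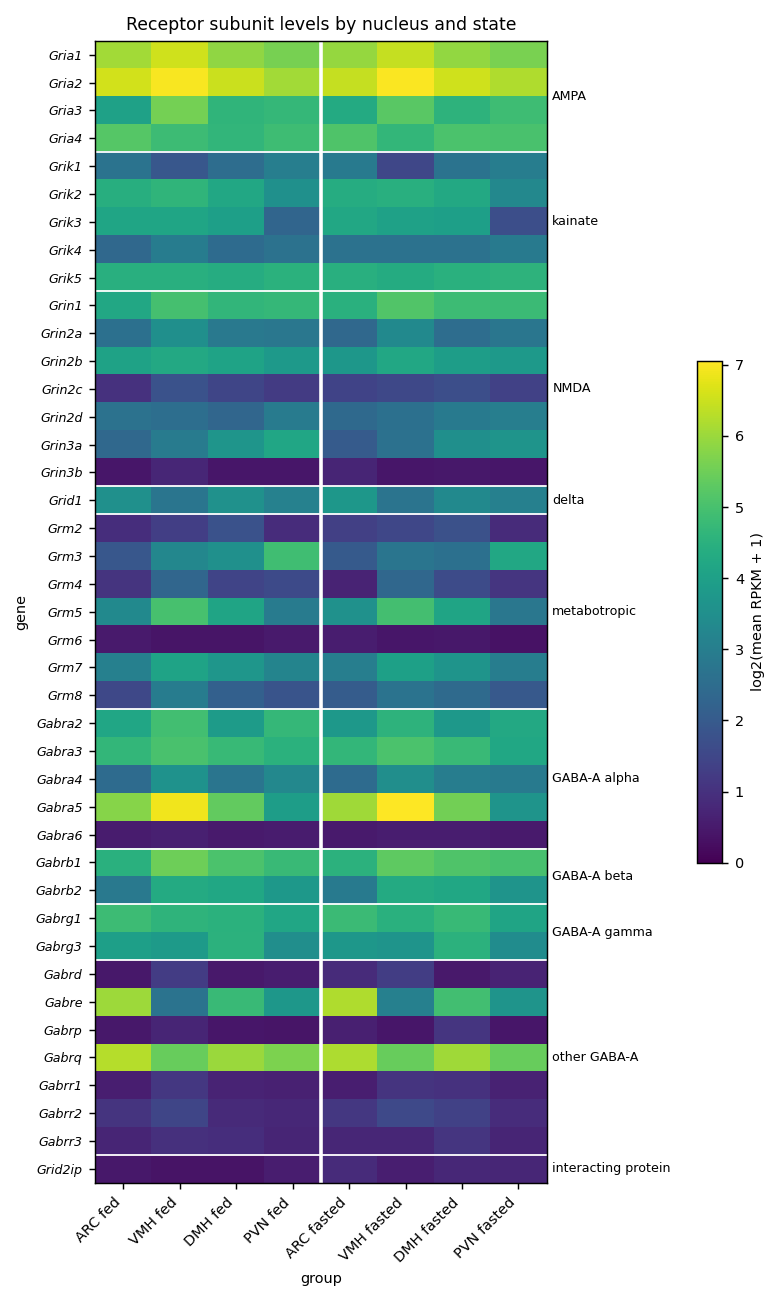
Mean level of the receptor genes shown in each of the 8 groups, as log2 of the mean RPKM plus 1 in colour, with genes in rows by class and groups in columns. Gria2 and Gria1 were high in every group, and Gabre was at 63.7 RPKM in the fed ARC and 5.44 RPKM in the fed VMH.

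The first question was whether the receptor genes differed between the nuclei of fed mice. They did for most of the set: 30 of the 42 tested genes passed the moderated F test of the 4 fed nuclei (limma, Benjamini-Hochberg adjusted p under 0.1 over all genes), where the same test called 12.4% of the 33579 genes tested, and 21.9% of the 17399 genes that reached 5 RPKM in 4 or more libraries. These were 17 of 24 glutamate receptor genes and 13 of 17 GABA-A receptor genes. By class, all 4 AMPA subunits passed, as did 3 of 5 kainate, 3 of 6 NMDA and 6 of 7 metabotropic receptor genes, all 5 tested alpha, 3 beta and 3 gamma subunits, and 2 of the 6 other GABA-A subunits, Gabre and Gabrq. In fasted mice 29 genes passed (11.9% of all genes, and 21.3% of those that reached 5 RPKM), and all 29 had also passed in fed mice (7.66% of all genes passed in both). The nucleus with the highest level was the same in fed and fasted mice for 28 of the 30 genes (72.3% of all genes past the fed threshold) and the nucleus with the lowest level for 25 (66.8%).

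Of the 30 genes, 19 were highest in the VMH (34.8% of all genes past the threshold), 5 in the ARC (22.6%), 4 in the PVN (27.5%) and 2 in the DMH (15.1%). The ARC had the lowest level of 13 (26.2%), the PVN of 11 (24.7%), the VMH of 4 (35.1%) and the DMH of 2 (14.0%). Set against the mean of the 3 other fed nuclei, 22 of the 42 genes were higher in the VMH, where 5.25% of all genes were, and 5 were lower (4.57%), or 27 in all (9.82%). The 22 were 12 glutamate and 10 GABA-A receptor genes. For the ARC, 8 genes were higher (2.38% of all genes) and 13 lower (2.24%), or 21 in all (4.62%). For the DMH these were 6 (1.33%) and 1 (1.01%), or 7 (2.34%), and for the PVN 5 (3.18%) and 12 (2.58%), or 17 (5.76%). In fasted mice 28 genes differed in the VMH from the rest (9.43% of all genes), 20 in the ARC (5.55%), 19 in the PVN (5.39%) and 5 in the DMH (1.67%). Over the 42 genes the median log2 difference of the fed VMH was 0.41, that of the ARC -0.11, that of the DMH 0.02 and that of the PVN -0.18. The shares of all tested genes, here and below, include genes with few or no reads, which the filter of 1 RPKM let in. Shares among genes that reached 5 RPKM are given only for the F tests, where they were higher.

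The level of neuron markers moved with the VMH result. The summed RPKM of 10 neuron markers was 1840 ± 95.2 (SD, n = 6) in the fed VMH, 1237 ± 103.8 (n = 6) in the PVN, 1064 ± 72.0 (n = 5) in the DMH and 904.6 ± 36.3 (n = 5) in the ARC, and 9 of the 10 markers passed the fed F test, 7 of them higher and 1 lower in the VMH. The median of the neuron markers in the VMH was 0.66 above the other nuclei on the log2(RPKM + 1) scale, and 15 of the 22 receptor genes that were higher there lay above that median. When every library was centred on its neuron markers, a scaling chosen after the data were seen, the median of all genes in the fed VMH moved to -0.68, and the split of the receptor genes turned from 22 higher and 5 lower to 6 higher and 21 lower. Under it 93.6% of all genes were called. Gabra5, Gria3, Grm5 and Grm8 were among the receptor genes that stayed higher, and the median of the 42 genes (-0.27) lay above that of all genes. Gabra3, Gabrd, Gria2, Grik2, Grik4 and Grin1 were among the 7 called genes that changed sign. In the fed ARC, DMH and PVN 0 of the called genes changed sign under this scaling, although only 14 of the 21 ARC calls were kept. The split in the ARC became 22 higher and 6 lower and that in the DMH 19 and 1, with the median of all genes at 0.47 and 0.25. In fasted mice 6 of the 20 called ARC genes changed sign, Gria3, Grin1 and Grm5 among them. So did 10 of the 28 called genes in the fasted VMH, and 0 in the fasted DMH and PVN. In tissue of this kind, fewer cells of a type and less RNA per cell cannot be told apart.

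Markers of other cells also differed between the fed nuclei. Inhibitory markers summed to 289.7 RPKM in the DMH, 212.6 in the ARC, 72.8 in the PVN and 22.4 in the VMH, and excitatory markers to 157.9 in the VMH, 74.7 in the PVN, 49.6 in the DMH and 29.3 in the ARC. Oligodendrocyte markers were at 315.1 RPKM in the VMH and 121.2 to 187.5 elsewhere, with 6 of 8 called higher in the VMH. Endothelial markers were at 70.65 RPKM in the PVN and 28.2 to 41.5 elsewhere, with 4 of 5 called higher there. Astrocyte markers ranged from 416.3 to 563 RPKM, microglial markers from 53.35 to 76.1, oligodendrocyte precursor markers from 17.9 to 26.5, and tanycyte and ependymal markers from 5.08 to 10.9. The part of these cells in the differences between nuclei was not tested.

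Within the GABA-A receptor genes, the largest contrast was in Gabre, the epsilon subunit (ENSMUSG00000031340, chrX:72255999-72274803 on GRCm38, minus strand). The 5 fed ARC libraries held 80.0, 57.7, 59.6, 64.5 and 56.7 RPKM and the 5 fed DMH libraries 26.9, 23.4, 29.5, 26.8 and 25.7 RPKM. The 6 fed PVN libraries ranged from 10.1 to 18.4 RPKM with a median of 11.5, and the 6 fed VMH libraries from 2.44 to 7.55 (median 5.99). Every ARC library was thus above every other library and every VMH library below every other. The ARC was 2.30 ± 0.22 (SE) above the mean of the other nuclei on the log2(RPKM + 1) scale (limma adjusted p = 1.86e-09) and the VMH fell by 2.23 ± 0.21 (adjusted p = 3.36e-10), and all 6 pairs of fed nuclei differed (adjusted p at most 0.016). The mean in the ARC was 11.7 times that in the VMH. In fasted mice the ARC again stood apart, with 65.0 to 78.3 RPKM against at most 33.6 RPKM elsewhere.

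Gabrq, the theta subunit, lies near Gabre on the X chromosome (chrX:72825178-72842602, plus strand). In fed mice it had the same order of nuclei over a much smaller range, while in fasted mice the lowest mean was in the PVN for Gabrq and in the VMH for Gabre. Fed ARC libraries held 90.03, 72.4, 82.7, 67.0 and 69.2 RPKM, and fed DMH libraries 56.7, 64.2, 68.3, 55.3 and 68.8. Levels in the fed PVN were 44.7 to 63.05 RPKM (median 47.8) and in the fed VMH 36.8 to 45.65 RPKM (median 41.9). Each range met that of the next nucleus in this order, and 0 of the 3 pairs of neighbours passed the test (adjusted p = 0.321, 0.118 and 0.182). Against the mean of the other nuclei, the ARC was 0.58 ± 0.09 higher (adjusted p = 4.48e-05) and the VMH fell by 0.56 ± 0.09 (adjusted p = 1.24e-05).

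The next widest range was in Gabra5, an alpha subunit known for tonic inhibition (ENSMUSG00000055078, chr7:57407672-57510059, minus strand). The fed VMH libraries ranged from 91.8 to 141.4 RPKM (median 117.6) and the fed PVN libraries from 9.54 to 18.4 RPKM (median 15.1). Fed ARC libraries held 65.7, 53.4, 48.3, 46.9 and 54.3 RPKM and fed DMH libraries 35.0, 42.5, 51.5, 33.1 and 38.9. Every VMH library was above and every PVN library below all the others. The VMH was 1.89 ± 0.15 above the mean of the other nuclei (adjusted p = 5.17e-12) and the PVN fell by 2.10 ± 0.15 (adjusted p = 6.08e-13), while the ARC and DMH did not differ beyond their spread (0.42, adjusted p = 0.39). In fasted mice the PVN again stood below all other libraries (at most 18.4 RPKM against at least 43.05), but the lowest VMH library (85.4 RPKM) fell within the ARC range. Another gene shares 4.98% of the exon length of Gabra5, and the reads carry no strand.

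The RefSeq promoter windows (GRCm38.p6) of these 3 genes are shown. They were chosen because Gabre and Gabrq are neighbours with the same order of levels in fed mice, and Gabra5 had the widest range of the remaining GABA-A genes with an entry. Each window is the 250 bases before the RefSeq start, 5′ to 3′, and capitals mark the motif matches. Gabre is chrX:72274722-72274971 (minus strand), Gabrq is chrX:72824928-72825177 (plus strand) and Gabra5 is chr7:57510060-57510309 (minus strand).
Gabre: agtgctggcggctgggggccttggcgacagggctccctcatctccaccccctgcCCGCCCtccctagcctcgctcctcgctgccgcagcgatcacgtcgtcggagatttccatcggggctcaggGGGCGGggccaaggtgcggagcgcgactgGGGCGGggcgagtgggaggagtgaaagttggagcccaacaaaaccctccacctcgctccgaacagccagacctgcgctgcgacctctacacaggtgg
Gabrq: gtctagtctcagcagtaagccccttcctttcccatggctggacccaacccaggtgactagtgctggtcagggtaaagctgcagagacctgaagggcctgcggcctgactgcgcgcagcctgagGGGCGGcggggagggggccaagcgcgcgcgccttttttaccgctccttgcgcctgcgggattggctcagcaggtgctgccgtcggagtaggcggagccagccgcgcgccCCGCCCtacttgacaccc
Gabra5: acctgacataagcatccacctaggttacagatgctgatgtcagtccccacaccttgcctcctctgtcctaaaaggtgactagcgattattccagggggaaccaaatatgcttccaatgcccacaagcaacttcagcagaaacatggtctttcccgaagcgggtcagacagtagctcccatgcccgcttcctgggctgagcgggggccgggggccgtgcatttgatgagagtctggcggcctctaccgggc
The motifs searched on both strands were AAGGTCA (bound by NR5A factors such as Nr5a1, the VMH marker), TATAAA (a box of core promoters), TGACG (the core of the cyclic AMP response element) and CCGCCC (the GC box, bound by Sp1). Gabre held 3 GC boxes and Gabrq 2, with GC contents of 68.8% and 67.2%, while Gabra5 held 0 of the 4 motifs and had a GC content of 56.4%. Of the 46 genes, 31 had an entry. A GC box was in 51.6% of their windows and in 32.9% of the windows of 27025 genes, TATAAA in 9.68% and 13%, TGACG in 6.45% and 17.9%, and AAGGTCA in 3.23% and 4.05%. A match describes letters in a window and is no evidence that a factor binds there. Grm5 and Grin3a had no entry, and the Grm3 entry is not shown because the bases after its start were not found in the GENCODE transcripts of the gene.

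Gabrb2, a beta subunit, was lowest in the ARC, at 6.235 ± 1.87 RPKM (SD, n = 5) against 12.6 to 19.0 RPKM elsewhere (-1.27 ± 0.13, adjusted p = 7.73e-09). Every fed ARC library (at most 8.59 RPKM) lay below every other fed library (at least 8.67 RPKM). Among the gamma subunits, Gabrg3 was highest in the DMH. The fed DMH libraries held 18.7, 22.1, 23.9, 22.9 and 23.3 RPKM, all above the highest library elsewhere (17.7 RPKM), for a difference of 0.77 ± 0.09 (adjusted p = 5.5e-07). Gabrg1, found in glia as well as neurons, was highest in the ARC at 27.8 ± 2.33 RPKM and lowest in the PVN at 17.2 ± 3.34 RPKM.

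**Figure D2:**
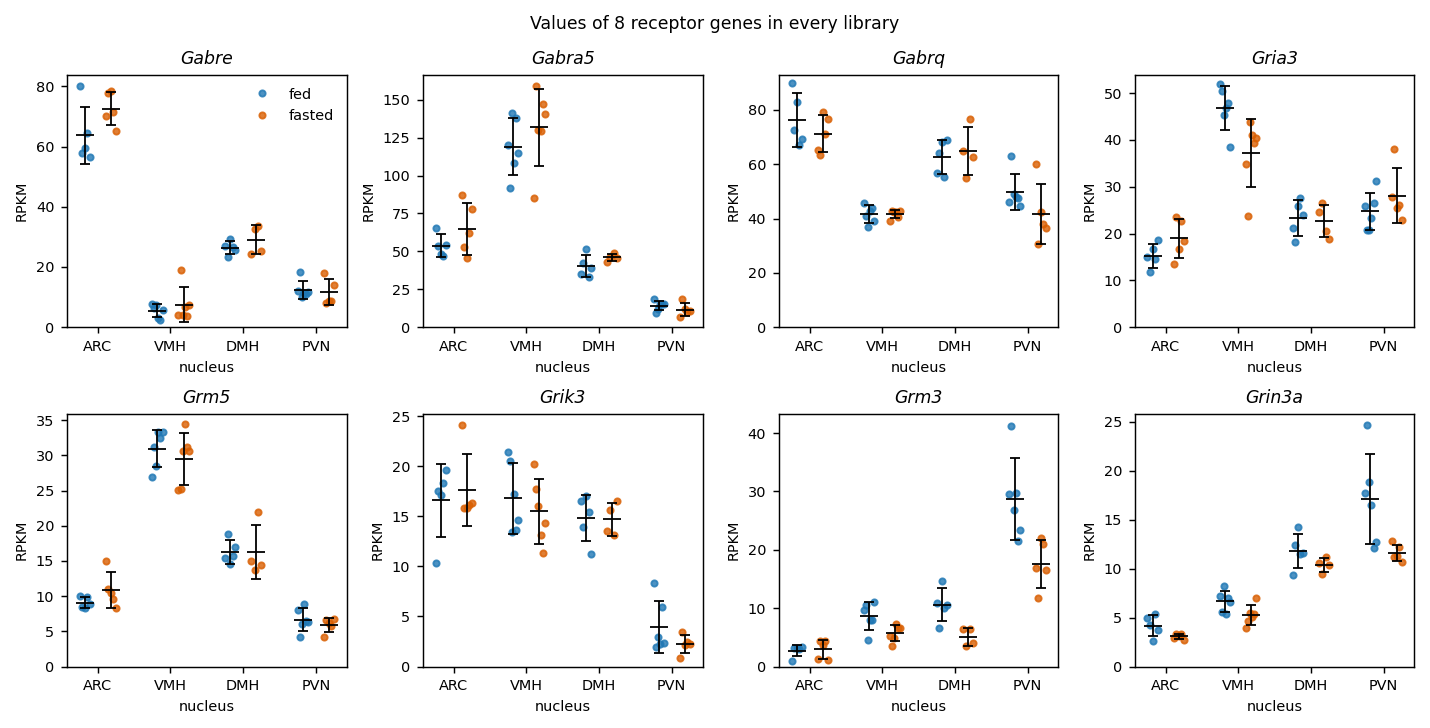
RPKM of 8 receptor genes in every library, with nuclei on the horizontal axis, 1 point for each fed and each fasted library, and black bars for the group mean ± SD. The fed ARC points of Gabre (56.7 RPKM and above) lie above all other nuclei, and the fed PVN points of Gabra5 (at most 18.4 RPKM) lie below them.

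The subunit make-up of the receptor classes, given as the share of the summed RPKM of a class, differed with these levels. Of the alpha subunit RNA, Gabra5 held 46.9% ± 4.68 (SD, n = 5) in the fed ARC and 45.3% ± 3.67 (n = 6) in the VMH, but only 28.7% ± 3.92 (n = 5) in DMH and 11.8% ± 1.92 (n = 6) in PVN libraries. Of the gamma subunit RNA, Gabrg1 held 49.1% ± 1.68 in the ARC and 26.65% ± 5.05 in the PVN. These shares are descriptions and were not tested, and they compare RNA, not assembled receptors.

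Most GABA-A genes lie in clusters, so the levels of neighbours were set side by side. Over the 8 group means, given as a description over groups that may share mice, the correlation (Pearson r) was 0.96 for Gabre and Gabrq on the X chromosome. It was not shared by every neighbour: Gabrg3 and Gabra5 on chromosome 7 gave 0.24, and Gabre and Gabra3, which lies between Gabre and Gabrq, gave -0.25. In the cluster of chromosome 5, Gabra4 gave 0.83 with Gabrb1 and 0.81 with Gabra2, while Gabrg1 gave -0.26 to -0.46 with its 3 neighbours.

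**Figure D3:**
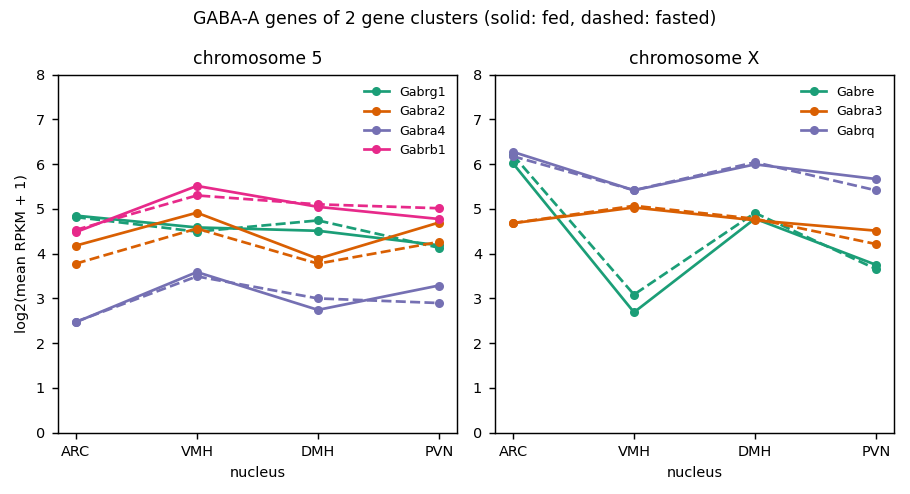
Mean level, as log2 of the mean RPKM plus 1, of the GABA-A genes of the clusters on chromosomes 5 and X across the nuclei, with solid lines for fed and dashed lines for fasted mice. The lines of Gabre and Gabrq have their highest points in the ARC, where the fed means were 63.7 and 76.3 RPKM, and that of Gabra3 does not.

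The AMPA subunits were highest in the fed VMH apart from Gria4. Gria2, which makes the receptor impermeable to calcium, was at 125.8 ± 9.96 RPKM in the VMH and 66.3 ± 7.70 RPKM in the PVN. Gria1, a subunit with a role in plasticity, was at 91.9 ± 5.53 and 47.7 ± 7.48 RPKM. For both genes every fed VMH library (at least 110.6 and 85.2 RPKM) was above every other fed library, and the VMH was higher than the mean of the rest by 0.61 ± 0.05 and 0.69 ± 0.07 (adjusted p = 6.42e-11 and 5.31e-09), a direction that turned for Gria2 when the libraries were centred on the neuron markers. The difference was wider for Gria3, with 38.6 to 51.95 RPKM in the VMH (median 47.3) against at most 31.2 RPKM in any other fed library, or 1.15 ± 0.12 (adjusted p = 3.88e-09). Fed ARC libraries held only 15.1, 11.8, 16.6, 14.5 and 18.7 RPKM of Gria3. Gria4 was highest in the ARC, at 35.95 ± 3.21 RPKM, and 24.1 to 28.0 RPKM elsewhere. By share of AMPA RNA, Gria2 held 39.7% to 45.65% in the 4 nuclei, and Gria3 7.22% ± 0.996 in the ARC and 12.04% to 16.04% elsewhere.

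Among the kainate receptor genes, Grik3 was low in the PVN. Fed PVN libraries ranged from 1.955 to 8.35 RPKM (median 2.65), all below the lowest library of the other fed nuclei (10.4 RPKM), and the PVN fell by 1.90 ± 0.18 against the rest (adjusted p = 1.26e-09). The ARC (16.6 ± 3.62 RPKM), VMH (16.8 ± 3.51 RPKM) and DMH (14.8 ± 2.33 RPKM) did not differ beyond their spread (adjusted p = 1 for each pair). Grik2 was also lowest in the PVN, at 10.7 ± 1.84 RPKM against 17.9 to 23.5 RPKM elsewhere (-0.89 ± 0.09, adjusted p = 1.4e-09). Grik4 and Grik5, which join the other kainate subunits in one channel, did not pass the F test (adjusted p = 0.205 and 1). The fed means of Grik5 lay between 19.5 and 21.5 RPKM, with a range of 0.11 on the log2 scale. Its share of kainate RNA was therefore 43.9% ± 3.56 in the PVN and 29.35% to 31.6% elsewhere. Grik1 was highest in the PVN at 7.17 ± 2.27 RPKM and lowest in the VMH at 2.80 ± 1.13 RPKM.

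Of the NMDA receptor genes, Grin3a, a subunit that lowers calcium entry (ENSMUSG00000039579, chr4:49661611-49845744, minus strand), differed most. Fed ARC libraries held 4.97, 4.23, 2.64, 5.33 and 3.75 RPKM, and fed DMH libraries 9.35, 12.4, 14.3, 11.5 and 11.6. The fed VMH ranged from 5.40 to 8.28 RPKM (median 6.78) and the fed PVN from 12.1 to 24.7 RPKM (median 17.1). In the order PVN, DMH, VMH and ARC, each nucleus differed from the next (adjusted p = 0.0595, 0.000415 and 0.00491), although PVN and DMH libraries overlapped. Grin1 was lowest in the ARC (17.7 ± 2.44 RPKM) and highest in the VMH (30.6 ± 4.42 RPKM), and shares 13.5% of its exon length with another gene. Grin2b, the main NMDA partner subunit by RNA at 48.4% to 57.7% of the Grin2 total, did not pass the F test (adjusted p = 0.202), nor did Grin2c or Grin2d. Grin2a did, with 10.45 ± 3.69 RPKM in the VMH and 5.10 to 6.155 RPKM elsewhere.

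The metabotropic receptor genes Grm3 and Grm5 had the widest ranges between fed nuclei of the glutamate receptor genes, at 3.01 and 2.08 on the log2 scale. Grm3, a receptor that inhibits adenylyl cyclase and is found in astrocytes as well as neurons (ENSMUSG00000003974, chr5:9485541-9725170, minus strand), was highest in the PVN, where fed libraries ranged from 21.55 to 41.3 RPKM (median 28.2). Fed ARC libraries held 1.01, 3.24, 3.12, 3.06 and 3.27 RPKM, fed DMH libraries 10.9, 6.67, 14.6, 10.1 and 10.5 RPKM, and the fed VMH 4.59 to 11.05 RPKM (median 8.82). Every PVN library was above and every ARC library below all the others, with differences of 2.01 ± 0.20 and -2.01 ± 0.21 (adjusted p = 3.86e-09 and 2.14e-08), while the VMH and DMH overlapped (adjusted p = 0.82). The mean in the PVN was 10.5 times that in the ARC. Grm5, a receptor coupled to calcium release (ENSMUSG00000049583), was the opposite in the PVN. It was at 26.9 to 33.4 RPKM in the fed VMH (median 31.8), above all other fed libraries, and at 4.26 to 8.83 RPKM in the fed PVN (median 6.41), with differences of 1.54 ± 0.10 and -1.24 ± 0.10 (adjusted p = 1.82e-13 and 8.43e-11), and the PVN overlapped the ARC (9.10 ± 0.814 RPKM, adjusted p = 0.08 between them).

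The receptors that inhibit transmitter release, Grm4, Grm7 and Grm8, were each highest in the VMH (4.05 ± 1.41, 16.1 ± 3.60 and 6.77 ± 3.29 RPKM) and each called lower in the ARC (1.09 ± 0.508, 7.48 ± 1.43 and 1.89 ± 0.217 RPKM). Grm2 did not pass the F test. Of the delta receptors, Grid1 was lower in the VMH (5.64 ± 0.691 RPKM) than elsewhere (7.50 to 10.9 RPKM). Among the genes that did not pass the fed F test were Gabrd, Gabrr1, Gabrr2, Gabrr3, Grid2ip, Grik4, Grik5, Grin2b, Grin2c, Grin2d and Grm2, of which the GABA-A genes and Grid2ip were at the no-read value in 13 or more libraries.

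Counted by pairs of fed nuclei, 26 of the 42 genes differed between VMH and PVN (9.84% of all genes), 24 between ARC and VMH (7.9%), 21 between ARC and PVN (4.13%), 19 between VMH and DMH (5.24%), 15 between DMH and PVN (3.42%) and 14 between ARC and DMH (2.79%). The 16 genes with the smallest p were read again within each of 3 batches of libraries inferred from the values. The nucleus with the highest mean was the same as over all libraries for 15, 15 and 14 of them, and the nucleus with the lowest mean for all 16. The genes were picked by their p over these same libraries, so this is a description and no separate support. Without the 5 libraries of under 2.5 M reads, a limit set after the data were seen, 28 genes passed in fed and 28 in fasted mice.

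**Figure D4:**
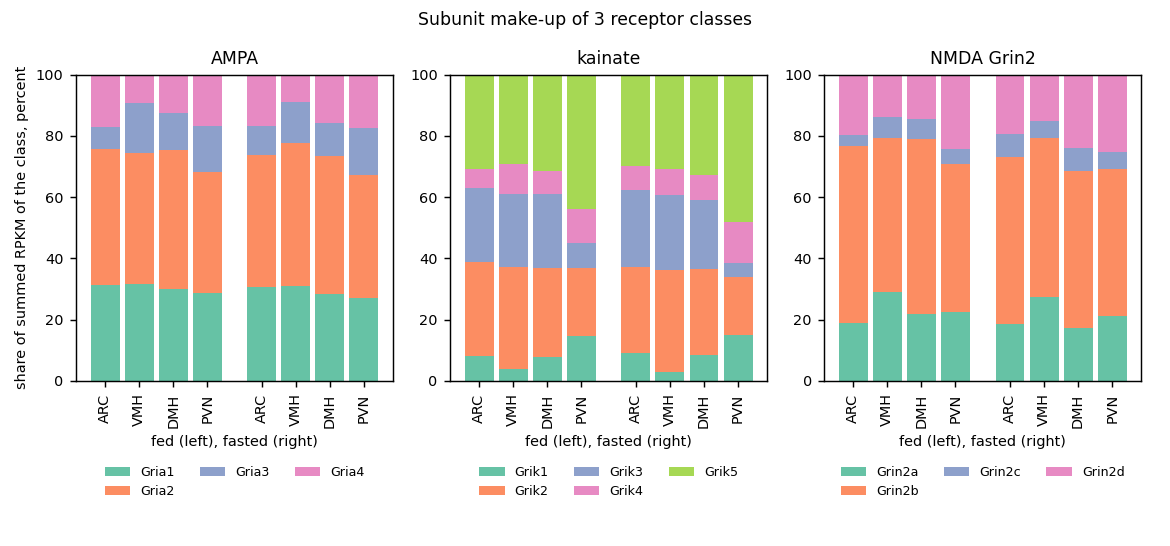
Mean share, in percent, of the summed RPKM of each of 3 receptor classes (AMPA, kainate and the Grin2 subunits of NMDA receptors) held by each subunit, as stacked bars for the 4 nuclei of fed (left) and fasted (right) mice. Grik5 takes 43.9% of kainate receptor RNA in the fed PVN and 29.35% to 31.6% in the other fed nuclei.

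Other proteins of these synapses were read from a list of 40 auxiliary, scaffold and GABA-B receptor genes, of which 39 were tested. In fed mice 22 of the 39 passed the F test between nuclei (12.4% of all genes, and 21.9% of those that reached 5 RPKM in 4 or more libraries). Against the other nuclei, the VMH was higher for 7 (5.25% of all genes) and lower for 11 (4.57%), and the ARC for 4 (2.38%) and 11 (2.24%). The DMH was higher for 3 (1.33%) and lower for 2 (1.01%), and the PVN for 7 (3.18%) and 5 (2.58%). The VMH was high in Nptx2 and Nptx1, pentraxins that gather AMPA receptors (2.84 ± 0.20 and 2.31 ± 0.16), in Cbln1, a ligand of delta receptors (2.73 ± 0.22), and in Cnih3, an auxiliary subunit of AMPA receptors (2.66 ± 0.30). Cbln1 was at 142.2 ± 20.1 RPKM in the fed VMH and 9.98 to 34.3 RPKM elsewhere. Cbln2, a relative, was high in the DMH (1.77 ± 0.26) at 16.2 ± 9.13 RPKM and in the PVN (1.06 ± 0.24) at 10.6 ± 4.84 RPKM. It was at 2.27 ± 1.13 RPKM in the VMH and 2.245 ± 1.61 RPKM in the ARC. The AMPA receptor regulators Cacng3 and Cacng2 were high in the PVN (1.02 ± 0.21 and 0.82 ± 0.10). The scaffold genes Dlg4 and Gphn had fed means of 43.0 to 49.6 and 22.2 to 29.3 RPKM.

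The second question was whether a 24 hour fast changed these genes. In no nucleus did a receptor gene pass the threshold: limma called 0 of 42 in the ARC, VMH, DMH and PVN, where 0.0566%, 0.131%, 0.0238% and 0.0715% of all genes were called. Without adjustment, 4, 4, 3 and 7 genes had a p under 0.05, against 7.5%, 7.31%, 6.48% and 5.53% of all genes. On the log2(RPKM + 1) scale they ranged in the ARC from -0.40 (Gabra2) to 0.46 (Grm8) and in the VMH from -0.51 (Grm3) to 0.39 (Gabrr2). DMH changes lay between -0.92 (Grm3) and 0.61 (Grin2d), and PVN changes between -0.68 (Grm3) and 0.23 (Gabrb1). The 95% interval of the change lay within 1 in both directions for 41, 42, 39 and 41 of the 42 genes, and within 0.5 for 21, 23, 21 and 23. When the libraries were centred on the neuron markers, 11 of the 42 genes were called higher in the fasted ARC, where the median of all genes moved to 0.22 and 44.0% of all genes were called, and 0 in the other nuclei.

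**Figure D5:**
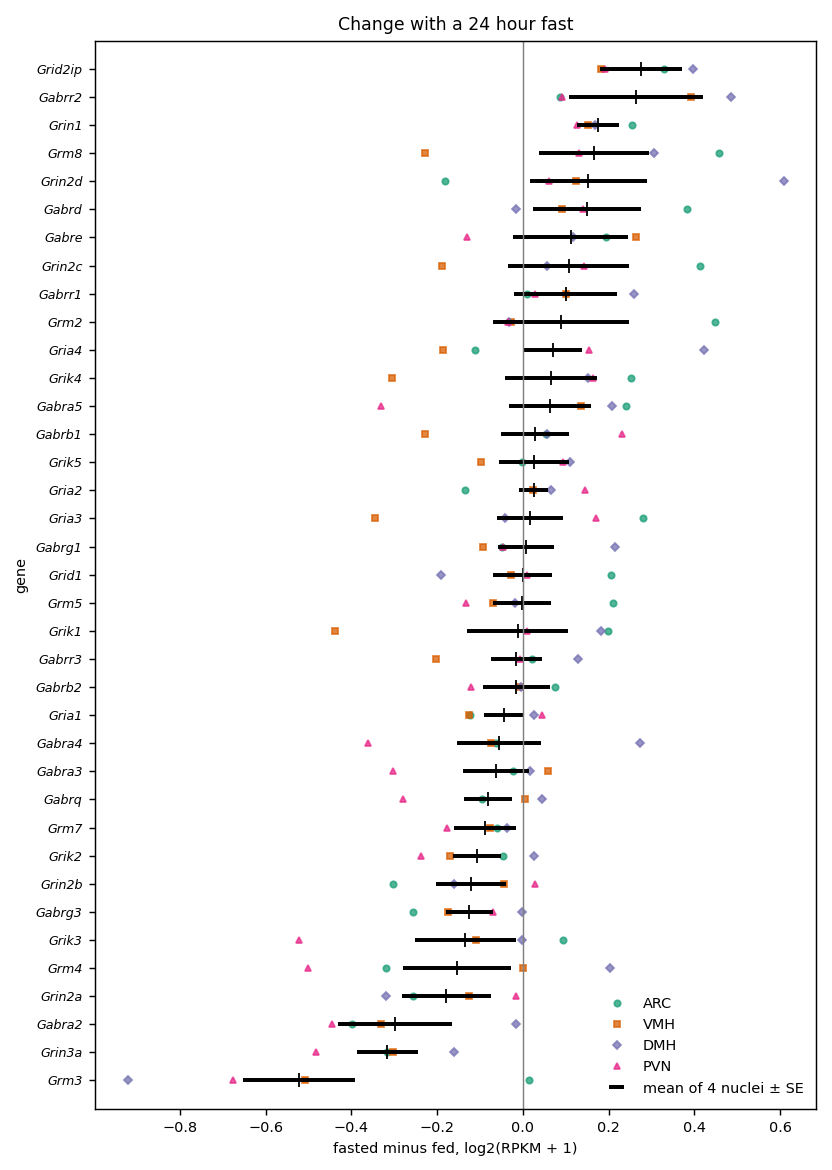
Fitted change with a 24 hour fast (fasted minus fed, log2(RPKM + 1)) of the tested receptor genes shown, with genes in rows, black marks for the mean of the 4 nuclei with its SE, and coloured points for each nucleus. Most means lie near 0, and those of the 2 genes past the threshold were -0.52 (Grm3) and -0.32 (Grin3a).

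Averaged over the 4 nuclei, 2 of the 42 genes passed (0.5% of all genes), and both were lower in fasted mice. Without adjustment 7 had a p under 0.05 (7.14% of all genes). Grin3a fell by 0.32 ± 0.07 (SE) on the log2(RPKM + 1) scale (limma adjusted p = 0.0296). In the ARC the fasted libraries held 2.94, 3.32, 3.10, 3.37 and 2.74 RPKM, so that 4 of the 5 fed libraries given above lay above all of them. In the DMH they held 10.6, 9.43, 11.2 and 10.4 RPKM, within the fed range. In the PVN they held 12.8, 11.2, 11.3, 12.2 and 10.7 RPKM, and the fed libraries overlapped them only at the fed low end. The fed PVN had reached 24.7 RPKM in replicate 2, a library of 1.88 M reads. Fasted VMH libraries ranged from 3.90 to 7.0 RPKM (median 5.22), against 5.40 to 8.28 RPKM in fed mice. The change was -0.32, -0.30, -0.16 and -0.48 in the ARC, VMH, DMH and PVN, with exact permutation p of 0.0714, 0.0368, 0.1905 and 0.0216 (two-sided), and all fasted libraries but 1 in the VMH lay below the fed mean of their nucleus. Within the 3 batches the mean change was -0.58, -0.33 and -0.19, the first over 3 nuclei because that batch held no fasted DMH library. Grin3a was picked by its p over these same libraries, so the values by nucleus and batch are a description and no separate support.

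Grm3 fell by 0.52 ± 0.13 averaged over the nuclei (limma adjusted p = 0.0731). In the ARC the fasted libraries held 1.24, 4.39, 3.66, 4.39 and 1.11 RPKM and the difference was 0.01, but the test of a difference between nuclei in the response did not call Grm3. In the DMH the fasted libraries held 6.47, 3.46, 6.41 and 4.08 RPKM, all below the lowest fed library of 6.67 RPKM. Fasted PVN libraries held 16.8, 11.7, 22.0, 20.9 and 16.6 RPKM, with 4 of the 5 below the lowest fed library (21.55 RPKM), and the fasted VMH ranged from 3.54 to 7.27 RPKM (median 5.96). The differences in the VMH, DMH and PVN were -0.51, -0.92 and -0.68, with two-sided exact permutation p of 0.0368, 0.0159 and 0.00866, against p = 1 in the ARC. Within batches the mean change was -0.64, -0.36 and -0.47, and it was negative in 2 of 3, 3 of 4 and 4 of 4 nuclei. Grm3 too was picked by its p over these libraries, so these values are no separate support.

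Both calls depended on the libraries and the scaling used. Without the 5 libraries of under 2.5 M reads, Grin3a (-0.25, adjusted p = 0.140) and Grm3 (-0.42, adjusted p = 0.330) no longer passed. Among the 5 was replicate 2 of the fed PVN, which held the highest PVN value of both genes (24.7 and 41.3 RPKM). Centred on the neuron markers they stood at -0.26 (adjusted p = 0.112) and -0.46 (adjusted p = 0.165), and Grin1 passed in their place, 0.24 higher (adjusted p = 0.0220). Beside Grm3, of 8 astrocyte markers 1 fell over the 4 nuclei, the water channel gene Aqp4 (-0.59 ± 0.10, adjusted p = 0.00131), which also passed in the VMH alone (-0.94, adjusted p = 0.0477). The other 7 did not pass over the 4 nuclei and went both ways, from -0.31 (Gfap) to 0.18 (Aldoc). None of the 10 neuron markers passed. The part of astrocytes in the Grm3 values was not tested.

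The genes with the smallest p in each nucleus did not pass the threshold, and are given as values. In the ARC, Grin1 was at 15.2, 20.9, 15.35, 19.2 and 17.65 RPKM in fed and 21.5, 20.4, 21.1, 22.3 and 20.25 RPKM in fasted libraries (0.25 ± 0.10, adjusted p = 0.65), and Gabrg3 at 14.8 ± 1.86 and 12.25 ± 1.37 RPKM (-0.26 ± 0.11, adjusted p = 0.65). In the VMH, Gria3 was at 46.8 ± 4.69 RPKM in fed and 37.2 ± 7.23 RPKM in fasted mice (adjusted p = 0.54). Gabrq was at 49.7 ± 6.69 RPKM in the fed and 41.6 ± 11.1 RPKM in the fasted PVN (adjusted p = 0.79).

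In the DMH, Gria4 was at 26.1, 27.2, 17.0, 24.4 and 25.7 RPKM in fed and 31.6, 40.8, 30.5 and 27.4 RPKM in fasted libraries, which did not overlap (0.42 ± 0.15, adjusted p = 0.58, exact permutation p = 0.0159, the smallest that 5 against 4 libraries allow). Grin2d, which shares 9.66% of its exon length with another gene, was at 2.42, 3.38, 6.18, 4.77 and 3.49 RPKM in fed and 5.66, 6.74, 6.72 and 6.77 RPKM in fasted libraries (0.61 ± 0.29, adjusted p = 0.76). In the DMH 3 genes had fed and fasted libraries that did not overlap (Gria4, Grm3 and Grid2ip, against 1.15% of all genes), and 0 did in the ARC, VMH and PVN (0.742%, 0.277% and 0.402% of all genes). Grid2ip was near its no-read value (0.224 RPKM), with at most 0.403 RPKM in fed and at least 0.410 RPKM in fasted DMH libraries. The fasted DMH libraries were deeper than the fed, at 7.38 ± 4 against 3.91 ± 0.864 M reads, and 1 of the 3 inferred batches held 0 of them. The part of depth in these values was not tested.

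The test for a response to fasting that was not alike in the 4 nuclei called 0 of the 42 genes (0.00596% of all genes), and 3 had an unadjusted p under 0.05 (4.39% of all genes), the AMPA subunits Gria4, Gria3 and Gria2. For Gria4 the fitted change was 0.42 in the DMH, 0.15 in the PVN, -0.11 in the ARC and -0.19 in the VMH. For Gria3 it was 0.28 in the ARC and -0.34 in the VMH. Of the 39 auxiliary and scaffold genes, 0 passed with fasting in any nucleus or over the mean of the 4.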

How the data were processed

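RNA from laser-captured nuclei was amplified with the NuGEN Ovation RNA-Seq V2 system and sequenced as single-end reads without strand. Per the labels and the study's methods, the authors aligned reads with TopHat2 2.0.11 to GRCm38 and used CASAVA 1.7, Cufflinks 2.2.1, edgeR and limma. They left out libraries that stood apart, and the deposited values are RPKM. From their steps, each value was found to be a whole read count (97.9% to 99.4% of values per library, within 0.05 reads) plus an added count (mean 5 reads, 1.45 to 14.5), with the mean of each of 3 batches removed on the log scale. The batches (10, 16 and 16 libraries), which no label names, and the depths are therefore inferred. Per the study's methods, capture and library preparation took place in 3 batches of brains. Whether these are the inferred batches is not stated. A gene with no reads had a median of 1.61 RPKM, and 0 values were equal to 0. The filter of 1 RPKM in 4 libraries therefore kept genes with no reads among those tested.

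Symbols came from GENCODE M21 (35965 of 37907 IDs), and 1 further symbol matching the rule was not protein coding. The main test was limma 3.58.1 (R 4.3.3) on log2(RPKM + 1) over 42 libraries and 8 group means, with a mean-variance trend, for 33579 genes that reached 1 RPKM in 4 or more libraries. Benjamini-Hochberg adjusted p under 0.1 over these genes was the threshold. The study fitted a model to counts, and limma took its place because RPKM are not counts. Fold changes on this scale understate the change of low genes. Exact permutation tests (SciPy 1.17.1) were two-sided. Genes named were the 16 with the smallest p between fed nuclei, those called over the mean of the nuclei, the 3 with the smallest p in each nucleus with fasting, and the most abundant of each class. In simulated data on 33579 genes, the fasting test in the PVN recovered 80% of 95 genes changed by 1 on the log2 scale and 100% of 105 changed by 2, and the test of a difference in response between nuclei recovered 64.2% and 91.4%. Of all their calls 8.59% and 8.19% were false. The changed genes were drawn from those above a set mean level, with independent noise. Recovery of smaller changes, like the PVN fasting changes of the receptor genes, was not measured. The highest correlation between libraries was 0.977. Receptor genes, marker lists and tests were chosen with earlier results of these data known. Kiss1, a further ARC marker, is not analysed here. Some of the receptor genes are counted but not reported here by name. Alternatives with only libraries of at least 2.5 M reads, and centred on the neuron markers, were added after the data were seen. Others changed the pseudocount, the filter, the scaling, the weights, the block and the libraries used.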

Additional observations from a re-analysis of the deposited data

Results flagged for a closer look

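Single libraries stood far from the rest of their group for named genes in 12 of the 168 groups tested by Dixon's criterion, where chance alone flags about 8.4. Gabre was at 18.36 RPKM in replicate 2 of the fed PVN (others 10.08 to 12.14) and at 19.07 RPKM in replicate 2 of the fasted VMH (3.731 to 7.28), and Gabrq was at 63.05 RPKM in the same fed PVN library (44.72 to 48.89). These 2 libraries held 1.88 and 2.06 M reads. Gria4 was at 17 RPKM in replicate 3 of the fed DMH (others 24.45 to 27.21) and at 44.19 RPKM in replicate 1 of the fasted PVN (26.48 to 29.94). Among kainate genes, Grik2 was at 11.37 RPKM in replicate 2 of the fasted PVN (7.721 to 8.732), Grik5 at 13.95 RPKM in replicate 4 of the fed VMH (21.06 to 23), and Grik3 at 10.36 RPKM in replicate 1 of the fed ARC (17.14 to 19.67) and 24.07 RPKM in replicate 1 of the fasted ARC (15.84 to 16.3). Grin2d was at 5.658 RPKM in replicate 1 of the fasted DMH (6.72 to 6.766), Grm3 at 1.012 RPKM in replicate 1 of the fed ARC (3.057 to 3.273) and Grm5 at 22.02 RPKM in replicate 3 of the fasted DMH (13.72 to 15.04).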

How the results depend on the processing

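The count of receptor genes called over the mean of the 4 nuclei with fasting (2) was 1 with a pseudocount of 0.1, 1 centred on the neuron markers, 1 with the replicate block, 0 with only libraries of at least 2.5 M reads, and 1 to 3 with each library left out in turn. Grin3a stayed past the threshold in 42 of 42 such fits (-0.35 to -0.29, adjusted p up to 0.0608), and Grm3 lost it in 15 (adjusted p up to 0.136), with a pseudocount of 0.1 (adjusted p = 0.158), with array weights (0.197) and with the block (0.116). For fasting, the block paired fed and fasted libraries of a nucleus by replicate number. These came from different mice, so the pairing was arbitrary. Centred on the neuron markers, a scaling that calls many genes of any kind, the counts were 2 for the difference between nuclei in the response to fasting (0 before, with 25.4% of all genes called), 11 for fasting in the ARC (0 before, with 44.0% called), 33 for the fasted ARC against the rest (20 before, with 92.75% called), 20 for the fed DMH (7 before, with 58.0% called), 29 for the fed VMH and DMH (19 before, with 90.5% called) and 26 for the fed DMH and PVN (15 before, with 47.75% called). Grin1 passed in the fasted ARC (0.48, adjusted p = 0.0125). The count for the fasted DMH (5) was 9 with array weights and 3 to 6 with a library left out, the lowest without replicate 3 of the fasted DMH. Gabrq in the PVN (-0.28 with fasting) was 0.150 within the first batch. The cause of these changes was not tested. With a library left out, the fed F count was 29 to 31, the fasted 27 to 30, the fed VMH 24 to 28, the fed ARC 17 to 21, the fed DMH 5 to 9 and the fed PVN 17 to 18. For libraries with the same replicate number, deviations from the group means correlated at -0.122 to 0.0544 over 20 pairs of fed and fasted groups. They correlated at -0.0867 to 0.0491 over 31 pairs of fed nuclei and -0.131 to 0.0655 over 27 pairs of fasted nuclei. Group means and batch means had been removed from these values, so the correlations cannot show which libraries share a mouse. Depth limits genes with few reads, and fasting changes smaller than their intervals were not detectable.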
